A study of Mus musculus with 8 samples.

Results

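The inter-alpha-trypsin inhibitors and fetuins are plasma proteins that the liver secretes, and their genes were followed in a comparison of livers of WT mice and of mice with a liver-specific knockout of Huwe1. Members were the rows of the authors' deposited table whose symbol was Itih1, Itih2, Itih3, Itih4, Itih5, Ambp, Ahsg or Fetub. All 8 were found, among 16640 genes. The series asks, by its title, how loss of Huwe1 in the liver changes lipid metabolism and fatty liver disease. Whole liver RNA was sequenced in bulk from 8 mice aged 1 year on a chow diet fed at will. Of these, 4 were WT and 4 carried a liver-specific knockout of Huwe1, a gene for a large HECT-type ubiquitin ligase, and these are called Huwe1_LKO. The sources used here do not give the driver of the deletion, the deleted exons, the strain or the sex.

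In the inter-alpha-trypsin inhibitor family, heavy chains (Itih1, Itih2 and Itih3) are joined through a chondroitin sulfate chain to the light chain bikunin, which is cut from the Ambp precursor together with the haem-binding lipocalin alpha-1-microglobulin. The heavy chains are handed over to hyaluronan by the enzyme TSG-6 (Tnfaip6) and stabilise the matrix around cells. Itih4 circulates without bikunin and is a substrate of plasma kallikrein, and Itih5 is a heavy chain better known from tissues other than liver. The fetuins belong to the cystatin superfamily. Fetuin-A (Ahsg) keeps calcium phosphate in solution and can inhibit the insulin receptor, fetuin-B (Fetub) inhibits the egg protease ovastacin, and both are known as liver hormones with links to fatty liver.

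The deposited table holds 1 normalized expression value per gene and genotype, the log2 of their ratio (Huwe1_LKO over WT) and the p-values of DESeq2. No values of single livers were analysed here. Each level is therefore the authors' group value with no spread of its own, and whether the livers of the groups overlap cannot be given. The error of each fold change is the standard error that the deposited fold change and p imply (4 livers per group). Fold changes of very low genes in the table are held close to 0, as shrinkage would leave them. Whether those of the members were shrunken too is not known, and if so their folds, implied errors and 95% intervals are too small. They would not be so equally, as shrinkage pulls in a fold with a large error further than one with a small error. The order of the members' folds could then be affected as well. Because the deposited log2 is that of the ratio of the group values, levels, ranks, shares and ratios would then carry the shrinkage too. The largest implied error in the table, low genes included, was 0.57 on the log2 scale. A gene was counted as changed at a deposited adjusted p under 0.05. Over all genes the deposited WT values came to 17347886 and those of Huwe1_LKO to 17533079.6. Huwe1 itself went from 2666 to 1784 in the deposited table (a log2 change of -0.58, with an adjusted p of 0.000425 by DESeq2). That left 66.9% of its WT value measured in the livers labelled Huwe1_LKO. The value is for the whole gene and the deleted exons are not given, so how much intact transcript remained cannot be read from it. As these are bulk samples, fewer cells of a type and less RNA per cell cannot be told apart.

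Of the 8 genes, 7 rose in Huwe1_LKO and 0 fell in the authors' deposited table. Over all genes tested, 9.97% were called, 4.41% as higher and 5.56% as lower. Among the 2196 genes with a mean value of 1000 or more, a class that holds 7 of the 8 members, 6.01% were called higher. The same 7 members lie among the 211 genes at 10000 or more, of which 16.6% were called higher, and 6 of these 7 were. This class is set by the mean of both groups, so a rise helps a gene to enter it. Itih1 and Itih3 entered it only through their Huwe1_LKO values, as their WT values were 9744 and 9801. The 1 member that did not pass was Itih3. The median log2 fold change of the members was 0.85 in the deposited table, against 0.02 over all genes and -0.08 over the genes at 1000 or more, of which 37.6% lay above 0. With the fold changes centred on the most abundant eighth of genes, calls over the whole table went from 734 higher and 925 lower to 1168 higher and 625 lower, and the members still counted 7 higher and 0 lower.

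The members lie at 4 places in the genome, given here as RefSeq places them in GRCm38, the assembly also called mm10. Ahsg (Entrez ID 11625; chromosome 16, 22892015 to 22899451) and Fetub (59083; 22918382 to 22939768) are neighbours. Itih4 (16427; chromosome 14, 30886476 to 30901986), Itih3 (16426; 30908572 to 30923787) and Itih1 (16424; 30929180 to 30943289) follow each other. Itih2 (16425; chromosome 2, 10094591 to 10130683) and Itih5 (209378; 10153536 to 10256529) are neighbours on opposite strands, and Ambp (11699; chromosome 4, 63143275 to 63154172) stands apart from the rest. The longest transcript of each gene in GENCODE M21 has between 7 exons (Ahsg) and 23 (Itih4). An antisense gene, Gm30505, overlaps Ahsg on the opposite strand, and no source used here says whether the counting used strand, so reads of the pair may not have been told apart.

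The sequence before the start site was read for each member from RefSeq (GRCm38.p6), as 250 bases that end at the base before the start in its promoter table. For Itih5 and Itih3 that start lies inside the gene bounds given above, so that 7 and 200 bases of their windows fall within them, and the window of the further Fetub start lies wholly within that gene. Windows were found for 8 of 8 members, 9 windows in all, since Fetub has more than 1 start. They were searched on both strands for 6 short strings: TATAAA (the TATA box, found in 12.4% of all 32851 promoter windows of that length), TTCNNNGAA (STAT, 7.02%), TTGCNNAA (C/EBP, 9.56%), TGTTTAC (FOXA, 3.17%), TATTTAC (also FOXA, 2.73%) and CAAAGT (part of an HNF4 site, 12.6%). The strings were chosen after the sequences had been seen, the C/EBP and CAAAGT matches of Itih2 overlapped by 3 bases, and a match is a description of letters only. Shown are the fetuin genes, which had the smallest p-values of the set, Itih4, which holds the only STAT match, and Itih5, which had the largest fold change. They are written 5′ to 3′ on the gene's own strand, the plus strand in each case, with matches in capitals, from chr16:22918132-22918381 (Fetub, its first start), chr16:22891765-22892014 (Ahsg), chr14:30886226-30886475 (Itih4) and chr2:10153293-10153542 (Itih5).
Fetub: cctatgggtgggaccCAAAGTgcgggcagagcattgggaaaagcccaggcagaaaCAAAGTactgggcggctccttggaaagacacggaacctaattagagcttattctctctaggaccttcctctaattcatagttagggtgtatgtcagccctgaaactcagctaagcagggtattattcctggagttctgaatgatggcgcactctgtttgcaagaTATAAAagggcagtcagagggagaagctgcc
Ahsg: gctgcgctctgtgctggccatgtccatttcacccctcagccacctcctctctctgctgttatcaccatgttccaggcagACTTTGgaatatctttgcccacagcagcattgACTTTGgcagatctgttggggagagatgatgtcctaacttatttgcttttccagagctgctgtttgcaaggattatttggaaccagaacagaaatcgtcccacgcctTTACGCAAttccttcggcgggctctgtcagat
Itih4: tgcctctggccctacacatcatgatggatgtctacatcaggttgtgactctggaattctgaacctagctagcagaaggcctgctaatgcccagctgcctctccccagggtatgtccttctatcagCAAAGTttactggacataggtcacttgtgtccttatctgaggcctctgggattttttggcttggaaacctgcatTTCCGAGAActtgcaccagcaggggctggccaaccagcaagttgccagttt
Itih5: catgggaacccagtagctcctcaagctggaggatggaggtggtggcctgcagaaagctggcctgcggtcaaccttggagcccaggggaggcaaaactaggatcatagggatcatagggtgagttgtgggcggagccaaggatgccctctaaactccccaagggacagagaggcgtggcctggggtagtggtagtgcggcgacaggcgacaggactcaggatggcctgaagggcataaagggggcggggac

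In the Fetub window, CAAAGT stands at 235 and 195 bases before the start and TATAAA at 31 bases before it. The Ahsg window holds the reverse form of CAAAGT at 171 and 139 bases before the start, and a reverse C/EBP match at 32 bases before it. The Itih4 window holds CAAAGT at 125 bases and the STAT match TTCCGAGAA at 51 bases before the start. Itih2 held CAAAGT and a C/EBP match, and the further start of Fetub TGTTTAC. Windows of Itih1, Itih3, Itih5 and Ambp held none of the 6 strings. The window of Itih5 had 61.2% G and C and that of Itih1 42.0%, beside a median of 52.4% over all windows.

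The light chain precursor rose. Ambp had a deposited value of 36378 in WT and 65348 in Huwe1_LKO. The Huwe1_LKO livers were the higher group, by 1.80-fold (95% interval 1.36 to 2.38, from an implied log2 error of 0.21, adjusted p = 0.00116 by DESeq2). The implied error of Ambp was larger than that of 86.6% of the genes at a mean value of 1000 or more.

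Both heavy chains that pair with bikunin in inter-alpha-inhibitor rose, with smaller fold changes than Ambp. Itih2 went from 17302 in WT to 24463 in Huwe1_LKO in the deposited table, 1.41-fold (95% interval 1.22 to 1.63, adjusted p = 0.000113 by DESeq2). Itih1 went from 9744 to 12612 in the deposited table, 1.29-fold (95% interval 1.12 to 1.49, adjusted p = 0.0065 by DESeq2), the smallest rise of the set. Their implied standard errors, 0.11 and 0.10 on the log2 scale, lay below the median of 0.13 for genes at 1000 or more. Whether the fold changes of members differ from one another was not tested, since all come from the same livers and values per liver are needed.

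Itih3, the heavy chain of pre-alpha-inhibitor, had a large fold change with a wide error. Its deposited value was 9801 in WT and 20002 in Huwe1_LKO, 2.04-fold, with a 95% interval from 1.15 to 3.62. The unadjusted p was 0.0147 and the adjusted p of DESeq2 0.107, so it did not pass. Under the other settings tried its adjusted p lay between 0.0626 and 1.00. Itih3 had the largest implied standard error of the 8 genes, 0.42 on the log2 scale, above that of 97.5% of the genes at a mean value of 1000 or more.

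Itih4 passed the threshold more narrowly than any other member. Its deposited value was 22694 in WT and 41183 in Huwe1_LKO, 1.81-fold (95% interval 1.22 to 2.71, implied log2 error 0.29, adjusted p = 0.039 by DESeq2). That error was above that of 95% of the genes at 1000 or more. Itih4 did not pass at an adjusted p under 0.01 or with the Benjamini-Yekutieli adjustment (adjusted p = 0.401, with 0.0147 to 0.401 over all settings tried). With the latter Itih1 did not pass either (adjusted p = 0.0669, with 0.0001 to 0.0669 over all settings).

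Itih5 was the member with the lowest level and the largest fold change. It went from 112 to 406 in the deposited table, 3.62-fold (95% interval 2.53 to 5.17, implied log2 error 0.26, adjusted p = 4.00e-10 by DESeq2). Its fold change was 79th from the top of all 16640 genes, a place counted with the folds of very low genes held close to 0. Markers of other liver cells are given beside it. Of 10 stellate cell and fibroblast markers 0 were called in the deposited table, with summed values of 5101 in WT and 5665 in Huwe1_LKO. Of 8 endothelial markers 0 were called, with sums of 1960.1 and 2019.7, and of 5 mesothelial markers 0, with sums of 60.3 and 51.1 in the deposited table. At an unadjusted p under 0.05 the DESeq2 result held 0 of these markers too. Further cell types are given below, with higher sums in Huwe1_LKO for neutrophil (170.2 and 325) and cholangiocyte markers (902 and 1622). Which cells carry the rise of Itih5 was not tested.

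The fetuins had the smallest p-values of the set. Fetub went from 13668 in WT to 40996 in Huwe1_LKO in the deposited table, 3.0-fold (95% interval 2.47 to 3.64, adjusted p = 2.52e-25 by DESeq2), the 12th smallest p of the table. Ahsg, one of the most abundant transcripts of the liver, went from 108033 to 194139.5 in the deposited table, 1.80-fold (95% interval 1.58 to 2.04, adjusted p = 6.49e-17 by DESeq2). The implied standard error of Ahsg was 0.09 on the log2 scale and only 8.52% of the genes at 1000 or more had a smaller one, while that of Fetub was 0.14.

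**Figure D1:**
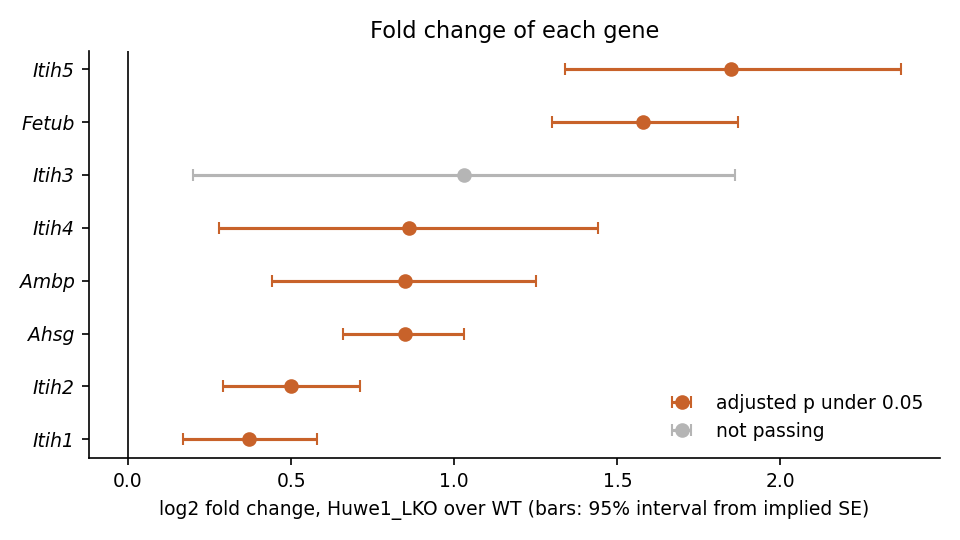
Log2 fold change of Huwe1_LKO over WT (horizontal axis) for each of the 8 genes, with the 95% interval from the implied standard error as bars. All 8 points lie above 0, from 0.37 for Itih1 to 1.85 for Itih5, and Itih3, in grey, has the widest interval and did not pass.

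The errors of the members were unequal. Among the 2196 genes at a mean value of 1000 or more, implied standard errors on the log2 scale fell into groups with a gap between them, whose bounds were set after the values were seen. Of these genes 2134 lay below 0.35, 0 between 0.35 and 0.4, and 62 at 0.4 or above. Whether the gap lies in the livers or in the way the errors were estimated was not tested. Itih3 was in the upper group and the other 6 members of this class in the lower one. Itih3 and Itih4, next to each other on chromosome 14, had the largest errors of the 8 genes, and Itih1, next to Itih3, had one of the smallest.

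**Figure D2:**
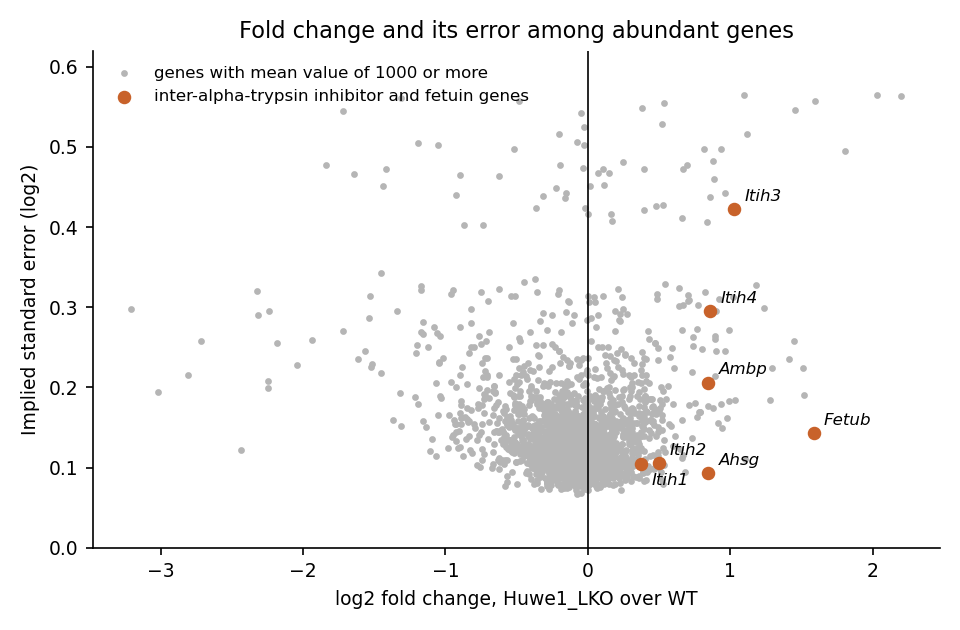
Log2 fold change of Huwe1_LKO over WT (horizontal axis) against its implied standard error (vertical axis) for the 2196 genes with a mean value of 1000 or more, each a grey point, with the 7 members of this class in orange. Itih3 lies at 0.42 above the gap in errors, and Ahsg (0.09), Itih1 (0.10) and Itih2 (0.11) lie near the lower edge of the cloud.

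Levels of different genes were compared per kilobase of the gene length in the deposited table. In WT, the order from high to low was Ahsg (70888 per kilobase), Ambp (28332), Fetub (8683), Itih4 (7193), Itih2 (5512), Itih3 (3461), Itih1 (3167) and Itih5 (14.2), from the deposited values. In Huwe1_LKO the order was the same, with Ahsg at 127388 per kilobase, Ambp at 50894, Fetub at 26046, Itih4 at 13053, Itih2 at 7793, Itih3 at 7063, Itih1 at 4099 and Itih5 at 51.2. With 1 deposited value per group, no spread says which neighbours in that order differ. Itih3 and Itih1 were the closest pair in WT, and Itih2 and Itih3 the closest pair in Huwe1_LKO.

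Among all 16640 genes, Ahsg was 20th by level per kilobase in WT and 9th in Huwe1_LKO, and Fetub 147th and 53rd. Itih5 had rank 10303 in WT and 7655 in Huwe1_LKO by the same deposited levels. Together the 8 genes held 1.26% of the summed deposited values in WT and 2.28% in Huwe1_LKO, of which Ahsg gave 49.6% and 48.6%. Albumin (Alb) alone held 6.87% and 9.29%, and without it the share of the 8 genes was 1.35% and 2.51%.

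**Figure D3:**
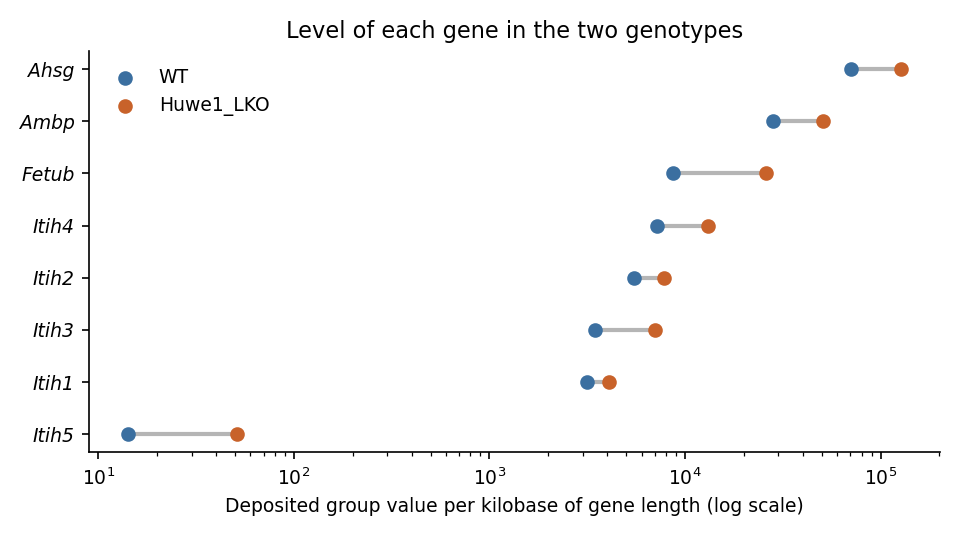
Deposited group value per kilobase of gene length, on a log axis, for each gene in WT (blue) and Huwe1_LKO (orange), ordered by the WT level. Every gene has the higher value in Huwe1_LKO, and the order runs from Ahsg at 70888 in WT to Itih5 at 14.2.

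As bikunin and the heavy chains are parts of 1 complex, their levels were set side by side. Per kilobase, Itih1, Itih2 and Itih3 summed to 12139 in WT and 18955 in Huwe1_LKO in the deposited levels. Ambp stood at 2.33 times that sum in WT and at 2.68 times in Huwe1_LKO. Within the sum, Itih2 gave 45.4% in WT and 41.1% in Huwe1_LKO, Itih1 26.1% and 21.6%, and Itih3 28.5% and 37.3%. Ahsg was 8.16 times as high as Fetub per kilobase in WT and 4.89 times in Huwe1_LKO. These ratios have no replicate values and were not tested.

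The genes beside the members on the chromosomes were examined, 4 on each side of each member. Of 32 neighbours that are not members, 4 rose and 0 fell in the deposited table, which is 12.5% against a background of 9.97%. Hrg, histidine-rich glycoprotein, and Kng2, a kininogen, lie just after Fetub and belong to the cystatin superfamily as well. Kng2 rose from 3903 to 6180.5 (log2 fold change 0.66, adjusted p = 0.00097) and Hrg from 19613 to 28078 (0.52, adjusted p = 0.0414) in the deposited DESeq2 result. Kng1, the next gene, had 41652 in WT and 54664 in Huwe1_LKO in the deposited table and did not pass (adjusted p = 0.0709).

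The genes on either side of that cluster did not pass. The chaperone gene Dnajb11, just before Ahsg, had a log2 change of -0.10 in the deposited table, and Eif4a2, a translation initiation factor gene after Kng1, one of -0.21 (adjusted p = 0.847 and 0.441). On chromosome 14, Mustn1, known from muscle and skeleton, lies just before Itih4 and rose from 81.0 to 147 by the deposited values (adjusted p = 0.024). On the other side of the cluster the kinase gene Nek4 had 186 in both groups of the deposited table. Near Itih5, the 1 called neighbour was Pfkfb3, an activator of glycolysis, which rose from 302 to 1018 by the deposited values (adjusted p = 3.93e-06) and starts 1318 kilobases from the start of Itih5. Of the 8 neighbours of Ambp 0 were called in the deposited DESeq2 result, and the acute phase gene Orm1, the third after it, went from 11886 to 21903 with an adjusted p of 0.293.

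**Figure D4:**
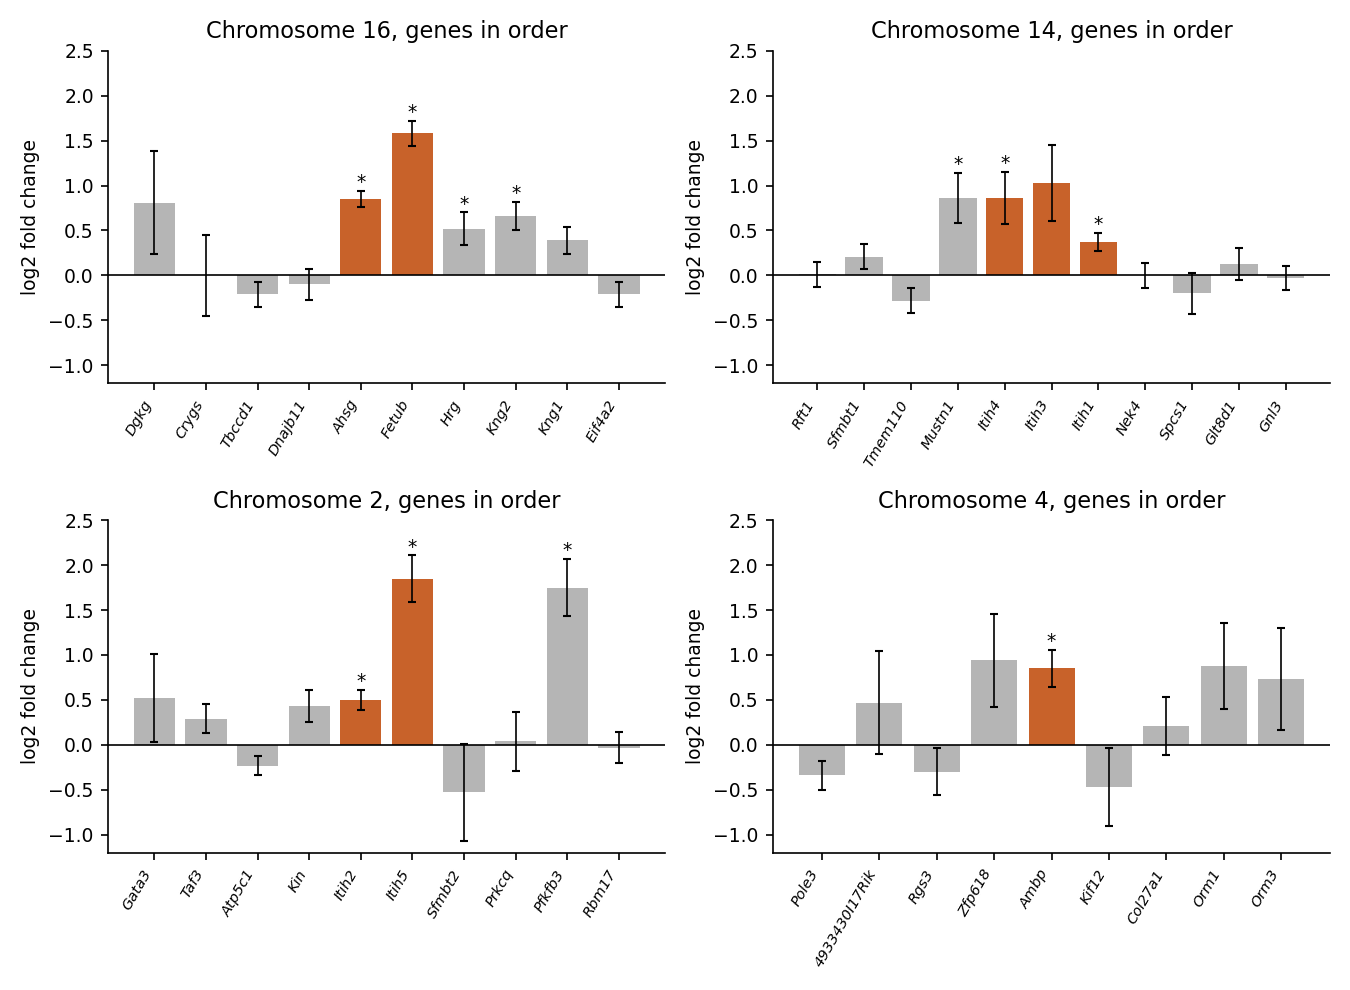
Log2 fold change of Huwe1_LKO over WT (vertical axis) for the members (orange) and their neighbours (grey) in gene order at the 4 places in the genome. Bars on the columns are the implied standard error and stars mark a deposited adjusted p under 0.05, which 4 of 32 neighbours have.

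Relatives of the members went both ways. In the cystatin superfamily outside the fetuins, 2 of 6 genes rose and 0 fell in the deposited table, Kng2 and Hrg. That is 33.3% beside the 9.97% called over all genes, and the median log2 fold change was 0.21. Of 12 other genes with a Kunitz domain, the inhibitor fold of bikunin, 0 rose and 2 fell. These were Tfpi2, an inhibitor of plasmin and other proteases, from 970.5 to 491 (adjusted p = 1.79e-09), and Aplp2, a relative of the amyloid precursor, from 6944 to 4584 (adjusted p = 0.000155) in the deposited DESeq2 result. The median of that list was 0.14, and 16.7% of it was called in the deposited table.

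Genes that act with the heavy chains came next. Of 19 genes of the hyaluronan matrix and heavy chain transfer, 1 rose and 1 fell in the deposited table, a share of 10.5% beside the 9.97% called over all genes, and the list's median log2 change was 0.16. Habp2, a hyaluronan-binding plasma protease, rose from 3395 to 4937 (adjusted p = 0.000274), and Ugdh, which makes the sugar precursor of hyaluronan and chondroitin chains, fell from 4088 to 2589.9 (adjusted p = 2.45e-05) in the deposited table. Ugp2, the most abundant of that list and the enzyme one step before Ugdh, did not pass, with a deposited log2 change of -0.46 (adjusted p = 0.0774). Of 17 genes that build chondroitin sulfate chains, such as the one that joins bikunin to the heavy chains, 0 were called in the deposited DESeq2 result, 1 had an unadjusted p under 0.05, and the median was 0.06. The most abundant of them, the glucuronosyltransferase gene B3gat3, had 550.4 in WT and 557 in Huwe1_LKO in the deposited table.

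Among 9 proteases that cut these proteins or are inhibited by them, 0 were called in the deposited DESeq2 result, with 3 at an unadjusted p under 0.05. The list's median log2 change was 0.18, and 8 of the 9 lay above 0. With the adjustment over genes at a mean value of 10 or more, 1 was called higher. The most abundant, plasminogen (Plg), had deposited values of 35427 and 39324 (adjusted p = 0.732 by DESeq2). Of 16 partners of fetuin-A, 1 rose and 2 fell in the deposited table, and the list's median log2 change was 0.12. That is 18.8% called, beside 9.97% over all genes. Irs1, an adaptor of the insulin receptor, rose from 315 to 413 (adjusted p = 0.0364). The annexins Anxa2 and Anxa6, calcium-dependent membrane binders, fell from 303 to 188 and from 2079.9 to 1556 (adjusted p = 0.0161 and 0.0356) in the deposited table. The asialoglycoprotein receptor gene Asgr1, the most abundant of the list, had 7503 and 7323.

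The called positive acute phase genes had the same direction as the members. Some heavy chains are acute phase proteins in rodents, while fetuin-A is classed as a negative one in humans. Of 26 positive acute phase and IL-6 response genes, 7 rose and 0 fell in the deposited table, and the list's median log2 change was 0.71. These 26.9% called higher stood beside 4.41% over all genes, 6.01% at a mean value of 1000 or more and 16.6% at 10000 or more. Saa3 (94.3 to 296, adjusted p = 0.00098), the haem carrier haemopexin (Hpx, 54703 to 129043, adjusted p = 0.00102), the receptor gene Il6ra (191 to 396, adjusted p = 0.00185) and Fgl1 (2691 to 9409, adjusted p = 0.0053) had the smallest p in the deposited table. The median implied standard error of this list, which holds values as low as 49.0, was 0.32. Those of the members were 0.42 for Itih3, 0.29 for Itih4, 0.26 for Itih5 and 0.21 for Ambp. Fetub had 0.14, Itih2 0.11, Itih1 0.10 and Ahsg 0.09.

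Called genes among the negative acute phase proteins were higher as well. Of 11 listed, 4 rose and 0 fell in the deposited table, and the list's median log2 change was 0.18. They were Serpina6, the corticosteroid-binding globulin (0.48, adjusted p = 0.0106), Apoa1 (0.52, adjusted p = 0.0152), Igf1 (0.39, adjusted p = 0.016) and the vitamin D-binding protein Gc (0.29, adjusted p = 0.0299), as deposited log2 fold changes. Alb, the most abundant, had a deposited value of 1192099 in WT and 1629594 in Huwe1_LKO and did not pass (adjusted p = 0.0631). The 36.4% of this list called higher stood beside 4.41% over all genes and 16.6% at a mean value of 10000 or more. At an adjusted p under 0.01 by DESeq2, 0 of this list and 5 of the positive acute phase list were called higher.

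Of 11 liver transcription factors, 2 rose and 0 fell in the deposited table, and the list's median log2 change was 0.34. That is 18.2% called higher, beside 4.41% over all genes. Foxa3, a forkhead factor of hepatocytes, rose from 600.3 to 1217 (adjusted p = 1.97e-05) and Hnf4a from 8990.2 to 11654 (adjusted p = 0.0318) in the deposited table. Cebpa, the most abundant of the list, had 11369 and 10610.4 and did not pass (adjusted p = 0.692). RNA levels of a factor do not show whether it bound near a member.

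**Figure D5:**
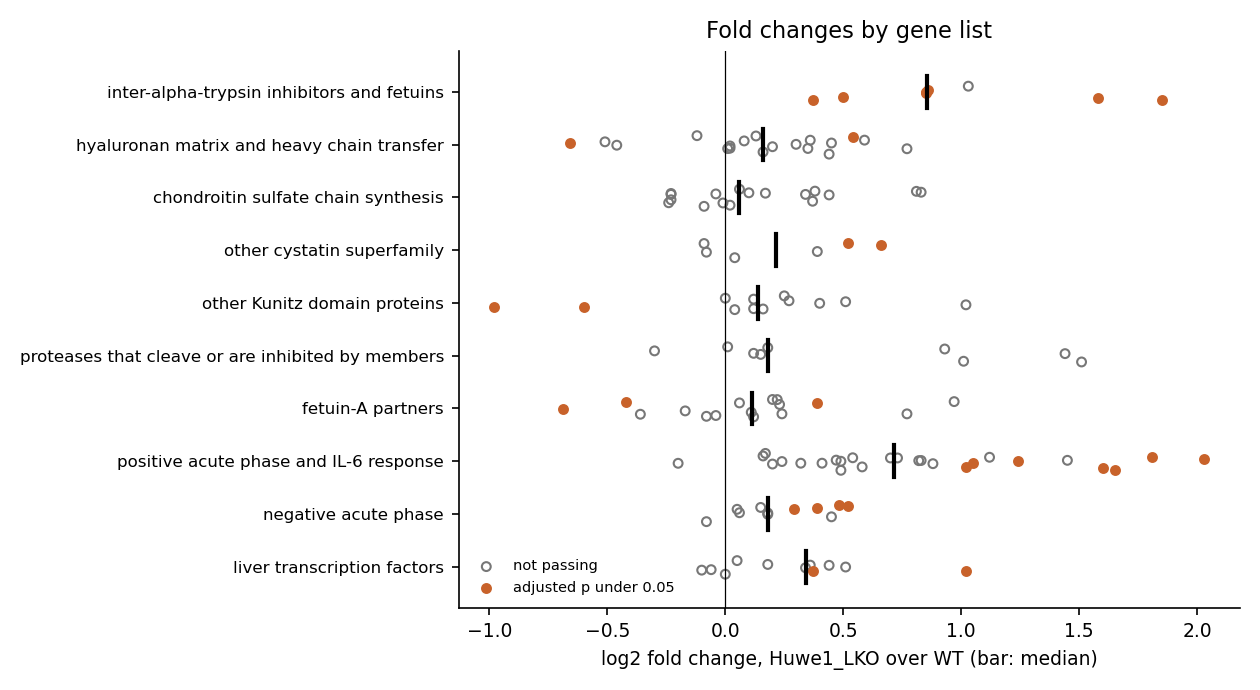
Log2 fold change of Huwe1_LKO over WT (horizontal axis) for the 8 members and the genes of 9 related lists. Each circle is a gene, filled where the deposited adjusted p is under 0.05, and the bar is the median, which is 0.85 for the members, 0.71 for the positive acute phase genes and between 0.06 and 0.34 for the other lists.

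Markers of the cell types in the tissue were checked beside these results. The 8 hepatocyte markers were at levels of 7323 or more in both groups of the deposited table, where 1 rose (Serpina1a, log2 fold change 0.49, adjusted p = 0.0109) and 1 fell (Apoa2, -0.63, adjusted p = 0.0392). Neutrophil markers had 2 of 10 called higher, S100a9 from 25.6 to 79.1 and Retnlg from 3.78 to 11.3 (adjusted p = 0.0163 and 0.0489), with a sum of 170.2 in WT and 325 in Huwe1_LKO in the deposited table. Of 8 Kupffer cell and macrophage markers, 6 cholangiocyte markers and 8 T and B cell markers, 0 were called in the deposited DESeq2 result, and 0, 1 and 0 had an unadjusted p under 0.05. Their deposited values summed to 2375 in WT and 2829 in Huwe1_LKO, to 902 and 1622, and to 165 and 211. No marker was listed at 0. Most of the cholangiocyte sum is Spp1, which has a mean value above 1000 (log2 change 0.97, adjusted p = 0.174 by DESeq2). The other cholangiocyte markers lay between -0.56 (Krt7) and 0.80 (Cftr). Of the hepatocyte markers 25.0% and of the neutrophil markers 20.0% were called, beside 9.97% over all genes. The part of any of these cell types in the members' changes was not tested.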

How the data were processed

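RNA of whole livers was sequenced from 4 WT and 4 Huwe1_LKO mice, with groups taken from the sample titles. Per the submitters' processing notes, the genome was mm10 and the groups were compared by DESeq2. The sources used here do not give the aligner, the counting or the filters.

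Expression was deposited by the authors as a signal normalized for depth, with 1 value per gene and genotype. The deposited log2 column compares KO with WT and differs from the log2 ratio of these values by at most 4.71e-08. The authors' adjusted p-value differs from Benjamini-Hochberg values computed over the 16640 genes by at most 1.74e-06. The 707 genes with a mean value under 0.135 have a log2 fold change of at most 0.12 in size, so folds of low genes are understated. Gene lengths are those of the deposited table.

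The planned count test could not be fitted, as the table has no values per liver, and calls are the authors' own. The implied standard error is the log2 fold change over the normal score that gives the deposited p (two-sided). A Wald test is assumed here without a source that says so. The 95% intervals use 1.96 such errors. The centrings and adjustments were tested on simulated data. Members and gene lists were chosen with earlier results of these data known. All members are named, and of each related list the called genes (at most 4, smallest p first) and the most abundant. The gene lists matched by symbol except Has2, Cemip, Cst6, Eppin and Astl, which are not analysed here. In the list of transcription factors 1 further gene is not reported here. Orm1, Dnajb11, Eif4a2 and Nek4 were named after their values were seen. RefSeq (GRCm38.p6) places 16608 of the genes. Alternatives were other adjustments, thresholds and centrings. Scripts ran on Python 3.11.15 with scipy 1.17.1, pandas 2.3.3, numpy 2.4.6 and matplotlib 3.10.9.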

Additional observations from a re-analysis of the deposited data

How the results depend on the processing

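With 1 deposited value per group, leaving out a liver could not be run, and the depth of each liver is unknown. No paired analysis was possible because the columns carry no replicate numbers. The members counted 7 higher with the adjustment over genes at a mean value of 10 or more and with each of the 3 centrings, 6 at an adjusted p under 0.01 and 5 with the Benjamini-Yekutieli adjustment. None was called lower under these settings, and over the centrings their median log2 change lay between 0.84 and 0.95. Itih4 (0.86) lost its call at an adjusted p under 0.01 and with the Benjamini-Yekutieli adjustment, which also ended the call of Itih1 (0.37), by the stricter limits alone. At an adjusted p under 0.01 the genes called over all related lists went from 17 higher and 5 lower to 8 and 3. In smaller lists 15 other counts, each of 5 or fewer, moved by more than 1.5 times. Called neighbours went from 4 to 3 with 2 genes on each side. Without division by length, the order of WT levels put Itih4 at place 3, Itih2 at 4 and Fetub at 5.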

Other observations

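The table's own annotation gave a wider set of protease inhibitors, examined after the values of the members were known. Outside the members, 72 genes carried the term for serine-type endopeptidase inhibitors, and the deposited table called 11 of them higher and 8 lower (median log2 change 0.09). The 15.3% called higher stood beside 4.41% over all genes, of which 5.56% were called lower. Antithrombin (Serpinc1), the main plasma inhibitor of thrombin, fell from 37953 to 31067 (adjusted p = 0.00648 by DESeq2), while angiotensinogen (Agt) rose from 13844 to 18198 (adjusted p = 9.61e-05) in the deposited table. The largest fall of that set was in Serpinb1a, an inhibitor of neutrophil proteases, from 255 to 55.5 (adjusted p = 6.79e-19), and the adipokine gene Serpina12 fell from 1173 to 376 (adjusted p = 4.40e-06) in the deposited table. Of 80 other genes with the term blood microparticle, which Itih2, Ambp and Ahsg carry, 14 rose and 4 fell in the deposited table. These 17.5% called higher were the highest share of the 8 terms that members have in common, beside 4.41% over all genes and 16.6% over the genes at a mean value of 10000 or more. The term most members carry, extracellular exosome, had 117 of 2165 other genes called higher (5.40%) and 193 lower in the deposited table.

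Of the 2196 genes at a mean value of 1000 or more, 62 had an implied standard error of 0.4 or above, the group that holds Itih3. The positive acute phase list has 21 genes at this level, and 9 of these 21 were in that group. Among them were Orm2 (0.57), Lcn2 (0.56), Saa1 (0.55) and Saa2 (0.52), as implied standard errors from the deposited table. The same group held Spp1, Txnip and several Mup genes of the major urinary proteins, near-identical copies whose reads are uncertain. Of the 62 genes, 4 rose and 5 fell in the deposited table. Among the 2196 genes at this level 132 were called higher, and over all genes 5.56% were called lower. Whether these large errors come from single livers was not tested.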
